A study of Mus musculus with 6 samples.

Results

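Immunoglobulin gene segments are the constant (C), variable (V), joining (J) and diversity (D) pieces from which antibody heavy and light chains are made. Their transcripts were measured in bulk RNA-seq of mouse aorta. The segments were chosen by their annotated biotype and by having at least 10 counts summed over the 6 libraries, and 146 of the 56748 genes in the table met both conditions. Of 268 immunoglobulin rows in the table, the 146 comprised 11 constant genes, 129 V segments and 6 J segments. No D segment and no row of the IG_LV biotype reached the limit. Just inside the limit lay Ighv1-52, Ighv2-6, Igkj2 and Igkv4-58 with 10 counts each, and just outside it lay Ighj2, Igkj3 and Igkv8-21 with 9 counts each.

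All animals lacked apolipoprotein E (ApoE-KO), were 6 months old and were infused with angiotensin II from osmotic minipumps for 28 days, a regimen that produces aortic disease. The 3 WT mice were littermates of the 3 sST2-KO mice, so WT refers only to the sST2 allele. Soluble ST2 (sST2) is the secreted form of the interleukin-33 receptor encoded by Il1rl1, and the comparison asked how its loss affects the diseased aorta. How the sST2-KO allele was made and which cells of the wall lost the protein is not given in the sources used here.

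A B cell joins a V, a D and a J segment into its heavy chain gene, and a V and a J segment into a kappa or lambda light chain gene. The joined V region is then expressed with a constant region. IgM and IgD are made by B cells that have not switched class, whereas IgG and IgA come from cells that have deleted the intervening constant genes. Plasma cells, the secreting end stage, hold far more immunoglobulin mRNA than resting B cells. Because the cells within a clone use the same V segments, V usage in a piece of tissue partly reflects which clones contribute most RNA. In diseased arteries B cells and plasma cells are known from the adventitia, the perivascular fat and adventitial lymphoid aggregates.

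The immunoglobulin segments lay on 3 chromosomes in the coordinates of the deposited table, whose build is mm39 per the submitters' processing notes. Chromosome 12 carried 72 of them (heavy chain), chromosome 6 carried 69 (kappa) and chromosome 16 carried 5 (lambda). All 146 matched a coding sequence in GENCODE vM21, an annotation of the older build GRCm38, by gene identifier. No coordinate was carried between the builds. Segments of a locus resemble each other closely, which limits how surely short reads can be given to a segment. The median identity of a V segment's coding sequence to its nearest relative among the members was 93.9% for heavy chain, 94.5% for kappa and 96.9% for lambda. The lambda pair is printed because the difference between the groups in lambda V usage rests on telling these segments apart. The last 150 coding bases are shown 5′ to 3′ on the coding strand, with capitals at the 5 positions where they differ.
Iglv1: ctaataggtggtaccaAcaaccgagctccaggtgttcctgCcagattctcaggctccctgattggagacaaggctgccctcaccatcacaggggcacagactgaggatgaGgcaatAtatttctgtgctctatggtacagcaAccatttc
Iglv2: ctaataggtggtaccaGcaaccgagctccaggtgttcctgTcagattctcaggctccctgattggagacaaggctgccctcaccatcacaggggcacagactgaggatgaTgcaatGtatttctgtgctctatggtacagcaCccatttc

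The 3 lambda constant genes show the same limit. Iglc2 and Iglc3 were 96.5% identical over their coding sequences, while Iglc1 was 74.8% identical to Iglc2 and 75.7% identical to Iglc3. Capitals in the last 120 coding bases mark each position at which the 3 genes are not all alike.
Iglc1: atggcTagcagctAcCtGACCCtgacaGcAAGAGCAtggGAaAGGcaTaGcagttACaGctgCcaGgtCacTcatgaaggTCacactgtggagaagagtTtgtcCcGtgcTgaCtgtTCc
Iglc2: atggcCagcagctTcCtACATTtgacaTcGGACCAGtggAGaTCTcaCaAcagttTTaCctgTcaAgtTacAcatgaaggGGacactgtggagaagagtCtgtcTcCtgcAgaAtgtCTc
Iglc3: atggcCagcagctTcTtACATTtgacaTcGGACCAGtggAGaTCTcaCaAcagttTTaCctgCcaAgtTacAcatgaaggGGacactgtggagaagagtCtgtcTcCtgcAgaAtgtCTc

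The 4 IgG genes were less alike, from 78.2% identical (Ighg1 and Ighg3) to 88.2% (Ighg2b and Ighg2c). Their first 90 annotated coding bases are printed because the IgG share of heavy chain counts differed between the groups, and capitals mark positions that differ among the 4.
Ighg2b: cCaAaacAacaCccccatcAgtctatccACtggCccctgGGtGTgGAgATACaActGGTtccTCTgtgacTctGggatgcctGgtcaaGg
Ighg2c: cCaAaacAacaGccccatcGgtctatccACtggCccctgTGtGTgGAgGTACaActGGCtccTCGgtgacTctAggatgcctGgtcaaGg
Ighg1: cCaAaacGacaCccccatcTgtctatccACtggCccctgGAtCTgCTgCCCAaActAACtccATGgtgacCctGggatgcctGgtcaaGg
Ighg3: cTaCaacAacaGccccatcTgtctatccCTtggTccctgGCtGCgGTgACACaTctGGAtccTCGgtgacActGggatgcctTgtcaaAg

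The kappa segments that led usage in at least 1 library are printed as their last 60 coding bases, the stretch that reaches into the antigen-contacting CDR3 loop. Capitals mark the letters TANTNNTGN, which span the codon of the conserved cysteine that precedes the loop. The motif was searched on the coding strand only, and 127 of 129 V members held it in this window, against 2.95% of 21936 protein-coding genes searched in the same way.
Igkv4-91: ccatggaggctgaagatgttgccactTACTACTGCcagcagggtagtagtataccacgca
Igkv10-96: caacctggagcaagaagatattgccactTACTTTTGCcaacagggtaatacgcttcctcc
Igkv1-110: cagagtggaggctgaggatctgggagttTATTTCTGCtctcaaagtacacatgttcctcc
Igkv4-59: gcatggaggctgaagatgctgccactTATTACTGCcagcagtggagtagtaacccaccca
Igkv1-117: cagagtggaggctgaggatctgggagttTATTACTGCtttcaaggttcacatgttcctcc
Igkv1-110 and Igkv1-117 were 97.2% identical over their whole coding sequences, and Igkv4-59 and Igkv4-91 were 86.1% identical.

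The libraries held between 15615658 and 17988552 counts. Acta2 and Myh11, genes of the contractile smooth muscle of the aortic wall, were high in every library, at 1644 to 6588 and 797 to 2529 CPM (counts scaled to library size with the trimmed mean of M-values, TMM). Cnn1 was at 187 to 773 CPM and Tagln at 11.3 to 30.6 CPM. Il1rl1, the gene that encodes ST2, had 51, 119 and 73 counts in WT and 42, 57 and 73 in sST2-KO. Its log2 difference was -0.72 (SE 0.54, edgeR adjusted p = 0.594), and its single row covers the soluble and the membrane form together. sST2-KO replicate 2 carried transcripts of airway epithelium, with a summed 46654 CPM over 13 markers against 24.1 to 79.7 in the other libraries. Epcam, Foxj1 and Krt5 reached 128, 336 and 99.0 CPM there and did not exceed 0.67 elsewhere. WT replicate 3 carried liver transcripts, with Alb at 6205 CPM against at most 3.83 elsewhere. WT replicates 1 and 3 had the highest correlation of log2 CPM across genes of any pair, 0.972. By chi-square per degree of freedom over genes outside the immunoglobulin loci with at most 500 counts in a pair, other pairs were as close, with 7.63 for WT replicate 1 and sST2-KO replicate 1, and 7.95 both for WT replicates 1 and 3 and for sST2-KO replicates 1 and 3. The median chi-square per gene was lowest for WT replicates 1 and 3, at 1.98 against 2.89 or more. The labels give no batch or date, and p-values measure only the spread between these 6 samples.

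Immunoglobulin RNA varied widely between animals of a group. The 146 segments summed to 776, 338 and 606 CPM in WT (replicates 1, 2 and 3, the order kept throughout) and to 407, 1519 and 431 CPM in sST2-KO. sST2-KO replicate 2, the library with airway transcripts, was the highest and WT replicate 2 the lowest, and the groups overlapped (573 ± 221 and 786 ± 635 CPM, mean ± SD, n = 3 each). The difference was 0.25 on the log2 scale (exact permutation test, two-sided, p = 0.8, 3 libraries per group). Without sST2-KO replicate 2 it was -0.37, and without WT replicate 2 it was -0.11. With 3 libraries against 3, no such exact test can go below p = 0.1. As a share of all counts, the segments took 0.0841%, 0.0263% and 0.0629% in WT, against 0.0398%, 0.173% and 0.0415% in sST2-KO. In bulk tissue, fewer cells of a type and less RNA per cell cannot be told apart.

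In a test across all genes (edgeR quasi-likelihood, Benjamini-Hochberg adjustment), 61 of the 146 segments passed the filter on low counts. They were the 11 constant genes, 16 heavy V, 32 kappa V and 2 lambda V segments. None of the 61 passed an adjusted p of 0.05, and neither did any of the 16377 genes tested (0%). At an unadjusted p under 0.05, 7 segments were lower and 2 higher in sST2-KO, set beside 5.95% and 5.08% of all genes tested. The groups did not overlap for 5 segments with lower and 2 with higher values in sST2-KO, beside 10% and 9.09% of all genes. By DESeq2, which gave 30 segments an adjusted p, 2 were lower (Ighg2b and Igkv3-2) and 2 higher (Igha and Igkv8-27) at an adjusted p under 0.05, while 1.6% and 0.406% of the 14515 genes with a DESeq2 adjusted p were called lower and higher. The median log2 difference of the 61 segments was -0.55, with 38 negative and 23 positive, and that of all tested genes was 0.04. Heavy V segments had a median of -1.04 with 14 of 16 negative, whereas kappa V segments had a median of 0.04 with 16 of 32 negative. These medians describe only segments that passed the filter, and segments of a locus share clones and near-identical sequence. Of 63 heavy V members 16 were tested, so the 14 negative values do not describe the locus. Untested were Ighv1-61 and Ighv2-2, with 135 and 122 counts in sST2-KO replicate 2, and Ighv5-6, with 44 counts in WT replicate 1. Summed over all 63 heavy V members, the log2 difference was -0.26 (exact permutation test, unadjusted p = 0.7).

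**Figure D1:**
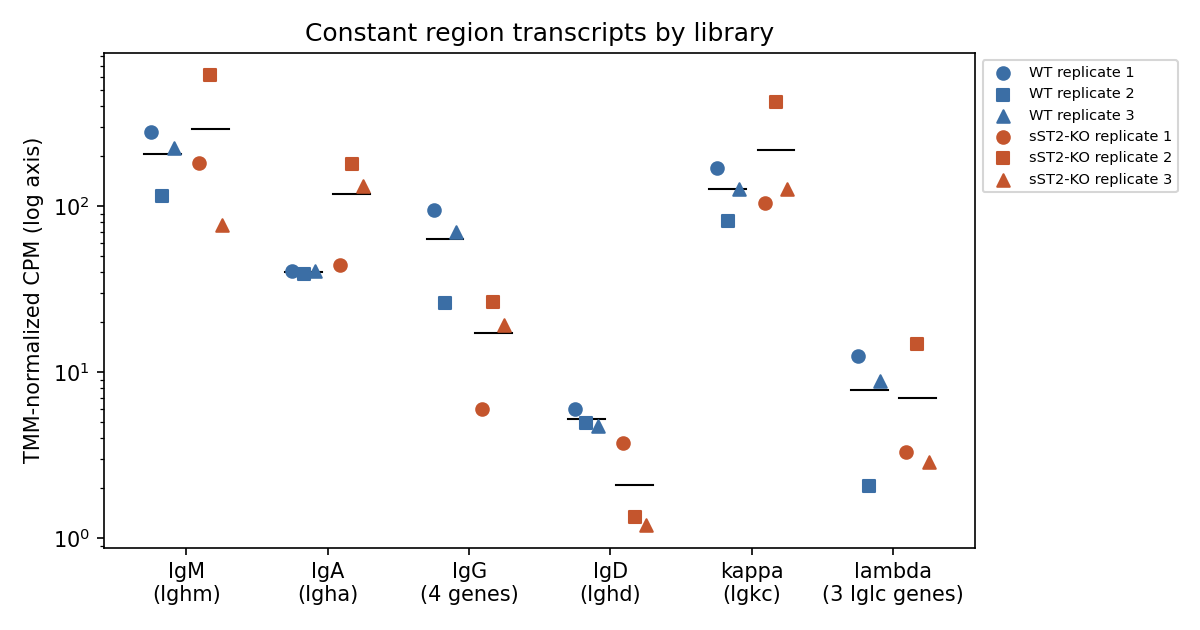
TMM-normalized CPM on a log axis for each heavy chain class and light chain constant region, with 1 point per library (blue WT, orange sST2-KO, marker shape for the replicate) and a bar at the group mean. IgA points of sST2-KO lie above all WT points and IgD points below them, IgM, kappa and lambda overlap widely, and sST2-KO replicate 2 is the highest for IgM, IgA, kappa and lambda.

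IgM was the most abundant heavy chain class in 5 of the 6 libraries. Its constant gene Ighm (chr12:113382178-113386350, minus strand) stood at 280, 115 and 224 CPM in WT and 182, 610 and 76.6 CPM in sST2-KO. The lowest and the highest value were both in sST2-KO. Its log2 difference was 0.49 (SE 0.72, edgeR adjusted p = 0.786), and it was -0.68 without sST2-KO replicate 2. Per kilobase of annotated length, Igkc was the most abundant constant gene in all 6 libraries, at 152 to 789 CPM per kilobase, and Ighm was the next in 5 of them, at 60.7 to 323. In sST2-KO replicate 3 Igha, at 49.5 CPM per kilobase, exceeded Ighm, at 40.6.

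IgD, which is co-expressed with IgM on resting mature B cells, was low everywhere. Ighd (chr12:113370224-113379944, minus strand) had 6.01, 4.94 and 4.71 CPM in WT and 3.75, 1.34 and 1.20 CPM in sST2-KO. All 3 sST2-KO values lay below all WT values. The log2 difference was -1.31 (SE 0.52), and it did not pass the threshold (edgeR adjusted p = 0.445). IgE was barely detected, with 3 counts of Ighe in sST2-KO replicate 2 and 0 in the other libraries, where a count of 0 allows up to 0.165 to 0.239 CPM.

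IgA, the class of mucosal surfaces, had higher values in sST2-KO. Igha (chr12:113218450-113223856, minus strand) stood at 40.3, 38.7 and 40.5 CPM in WT and 44.3, 180 and 132 CPM in sST2-KO. The WT animals were nearly level, sST2-KO replicate 1 was just above them and the other sST2-KO libraries were far above. The log2 difference was 1.57 (SE 0.46), with an edgeR adjusted p of 0.420 and a DESeq2 adjusted p of 0.0435. The highest Igha value was in the library with airway transcripts, whose part in the difference was not tested, and without that library the log2 difference was 1.15. In that library Pigr, the epithelial receptor that carries IgA and IgM across mucosa, was at 816 CPM and did not exceed 0.60 CPM elsewhere. sST2-KO replicate 3 had the second highest Igha value while its airway markers summed to 24.1 CPM, the lowest of the 6 libraries.

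IgG had lower values in most sST2-KO libraries. The 4 IgG genes summed to 94.1, 26.0 and 70.1 CPM in WT and 6.02, 26.4 and 19.2 CPM in sST2-KO. sST2-KO replicate 2 was level with WT replicate 2, so the groups overlapped. The log2 difference was -1.94 (exact permutation p = 0.2, and 0.6 after adjustment over 9 class levels). All 4 genes had a negative log2 difference in the edgeR fit. For Ighg2b (chr12:113266585-113271553, minus strand) the values were 41.2, 12.1 and 32.6 CPM in WT and 2.95, 11.8 and 2.66 CPM in sST2-KO. The sST2-KO values all lay below those of WT, with sST2-KO replicate 2 just under WT replicate 2. The log2 difference of Ighg2b was -2.30 (SE 0.71), with an edgeR adjusted p of 0.426 and a DESeq2 adjusted p of 0.0333. Ighg2c (chr12:113248945-113252552) stood at 39.6, 11.5 and 28.3 CPM in WT and 2.33, 8.16 and 14.0 CPM in sST2-KO, a log2 difference of -1.70 (SE 0.69, edgeR adjusted p = 0.445). Ighg1 (chr12:113288860-113294143) had 11.5, 2.23 and 8.11 CPM in WT and 0.511, 4.70 and 2.26 CPM in sST2-KO, a log2 difference of -1.55 (SE 0.86, edgeR adjusted p = 0.514). Ighg2c and Ighg1 overlapped between the groups. Ighg3 (chr12:113319844-113324852) stayed under 1.8 CPM in every library, and its log2 difference of -0.36 (SE 1.02) became 0.36 without WT replicate 1 and 0.07 without sST2-KO replicate 1.

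Relative to the other heavy chain classes, IgG took a smaller share in every sST2-KO animal. IgG made up 22.4%, 14.1% and 20.7% of heavy chain constant counts in WT and 2.55%, 3.23% and 8.39% in sST2-KO. Their 95% Clopper-Pearson intervals, which cover counting error only, did not touch between the groups. The lowest WT bound was 12.7% (replicate 2) and the highest sST2-KO bound 9.37% (replicate 3). The mean difference was 14.3 percentage points (19.1% ± 4.37 SD in WT, 4.72% ± 3.20 SD in sST2-KO, n = 3 each). It reached the smallest p the design allows (exact permutation p = 0.1, and 0.3 after adjustment over 9 shares). Scaled per kilobase, the IgG shares were 23.2%, 15.3% and 21.4% in WT, against 2.66%, 3.23% and 12.1% in sST2-KO, again without overlap. The IgA share was 9.59%, 21.0% and 11.96% in WT, against 18.7%, 22.0% and 57.7% in sST2-KO, and that of IgM was 66.6%, 62.2% and 66.0% in WT, against 77.1%, 74.6% and 33.4% in sST2-KO. Both overlapped between the groups. The IgD share also overlapped, unlike the IgD level, at 1.43%, 2.68% and 1.39% in WT, against 1.59%, 0.163% and 0.523% in sST2-KO (exact permutation p = 0.3). sST2-KO replicate 3 alone was mostly IgA, and without it the mean IgM share was 10.9 percentage points higher in sST2-KO instead of lower.

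**Figure D2:**
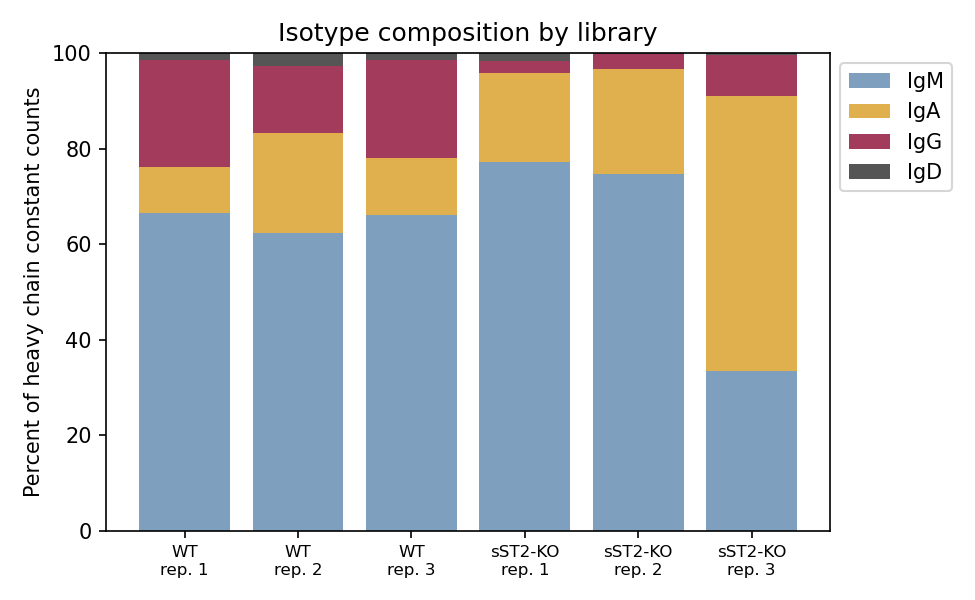
Stacked bars of the percent of heavy chain constant counts taken by IgM, IgA, IgG and IgD in each library. IgG takes 14.1% to 22.4% in the 3 WT libraries and 2.55% to 8.39% in the 3 sST2-KO libraries, and sST2-KO replicate 3 is mostly IgA at 57.7%.

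The ratio of IgG to IgA counts was examined after the class levels had been seen. It was 2.34, 0.672 and 1.73 in WT, against 0.136, 0.147 and 0.146 in sST2-KO. By counts, which are not scaled for gene length, the 3 sST2-KO libraries were close to each other. Their total immunoglobulin ranged from 407 to 1519 CPM. Per kilobase, IgG and IgA took 2.66% and 14.0%, 3.23% and 16.7%, and 12.1% and 47.9% in sST2-KO, so replicate 3 had relatively more IgG. In WT these shares were 23.2% and 6.96%, 15.3% and 15.8%, and 21.4% and 8.77%. The log2 difference of the ratio of IgG to IgA counts was -3.29 (exact permutation p = 0.1, and 0.3 over 3 ratios of classes). It ranged from -3.82 to -2.92 when each library was left out in turn, and without sST2-KO replicate 2 it was -3.31. The ratio of IgG to IgM was 0.336, 0.227 and 0.313 in WT, against 0.0330, 0.0432 and 0.251 in sST2-KO, where replicate 3 fell among the WT values.

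Within IgG, 5 of the 6 libraries had a similar order of subclasses. Ighg2b took 43.8%, 46.6% and 46.6% of IgG counts in WT and 49.1%, 44.7% and 13.8% in sST2-KO. Ighg2c took 42.1%, 44.2% and 40.4% in WT, against 38.7%, 31.0% and 72.7% in sST2-KO. sST2-KO replicate 3 stood apart, with an Ighg2c interval of 67.1% to 77.7% that lay outside those of all other libraries. Its IgG rested on 289 counts, and that of sST2-KO replicate 1 on 106 counts.

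Kappa was the main light chain in all libraries. Igkc (chr6:70703419-70703950, plus strand) stood at 169, 80.7 and 127 CPM in WT and 104, 420 and 126 CPM in sST2-KO, overlapping between the groups. Its log2 difference was 0.78 (SE 0.57, edgeR adjusted p = 0.586), and it was -0.13 without sST2-KO replicate 2. Lambda made up 6.89%, 2.51% and 6.53% of light chain constant counts in WT and 3.07%, 3.42% and 2.22% in sST2-KO, with WT replicate 2 among the sST2-KO values (exact permutation p = 0.3). From V segments, lambda made up 10.99%, 5.76% and 12.98% of light chain V counts in WT and 3.95%, 6.39% and 5.55% in sST2-KO, again with overlap.

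Within lambda, the balance of segments differed between the groups. Of lambda V counts, Iglv1 (chr16:18903767-18904250) took 60.8%, 64.7% and 53.9% in WT, against 90%, 90.7% and 88.4% in sST2-KO, and Iglv2 (chr16:19079151-19079609) took the rest. The groups did not overlap, and the mean difference was 29.9 percentage points (exact permutation p = 0.1, 0.3 over 9 shares). These shares rest on 245, 34 and 204 counts in WT and 30, 268 and 43 in sST2-KO. The interval of WT replicate 2 ran from 46.5% to 80.3%. Those of sST2-KO replicates 1 and 3 ran from 73.5% to 97.9% and from 74.9% to 96.1%. WT replicate 2 could therefore not be separated from these sST2-KO libraries at this depth. Iglv2 itself had 5.29, 0.957 and 5.61 CPM in WT and 0.1704, 1.24 and 0.333 CPM in sST2-KO, a log2 difference of -2.74 (SE 0.93, edgeR adjusted p = 0.435). Iglv1 had a log2 difference of -0.04 (SE 0.87). Their sequences differ at 5 of the last 150 coding bases shown above, and how the authors assigned reads between them is not given in the sources used here.

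The lambda constant genes gave a less certain picture. Iglc2 (chr16:19017146-19019101) took 56.8%, 69.2% and 57.7% of lambda constant counts in WT and 17.2%, 33.3% and 32.6% in sST2-KO, without overlap (exact permutation p = 0.1, 0.3 over 9 shares). Iglc3 (chr16:18883980-18884431), its near-identical copy, had 19, 0 and 22 counts in WT and 32, 20 and 10 in sST2-KO. Counted together, as decided after the values had been seen, Iglc2 and Iglc3 took 65.2%, 69.2% and 72.5% in WT, against 72.4%, 40% and 55.8% in sST2-KO, which overlapped (exact permutation p = 0.3). The log2 differences of Iglc2, Iglc1 (chr16:18880368-18880821) and Iglc3 were -1.08, 0.57 and 0.53, with SEs of 0.92, 1.01 and 1.03, and no edgeR adjusted p was below 0.638. For Iglc2 the log2 difference was -2.61 without sST2-KO replicate 2, -0.61 without WT replicate 1 and -0.63 without sST2-KO replicate 1. For Iglc1 it was -1.21 without sST2-KO replicate 2, and for Iglc3 it was -0.045 without WT replicate 2.

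**Figure D3:**
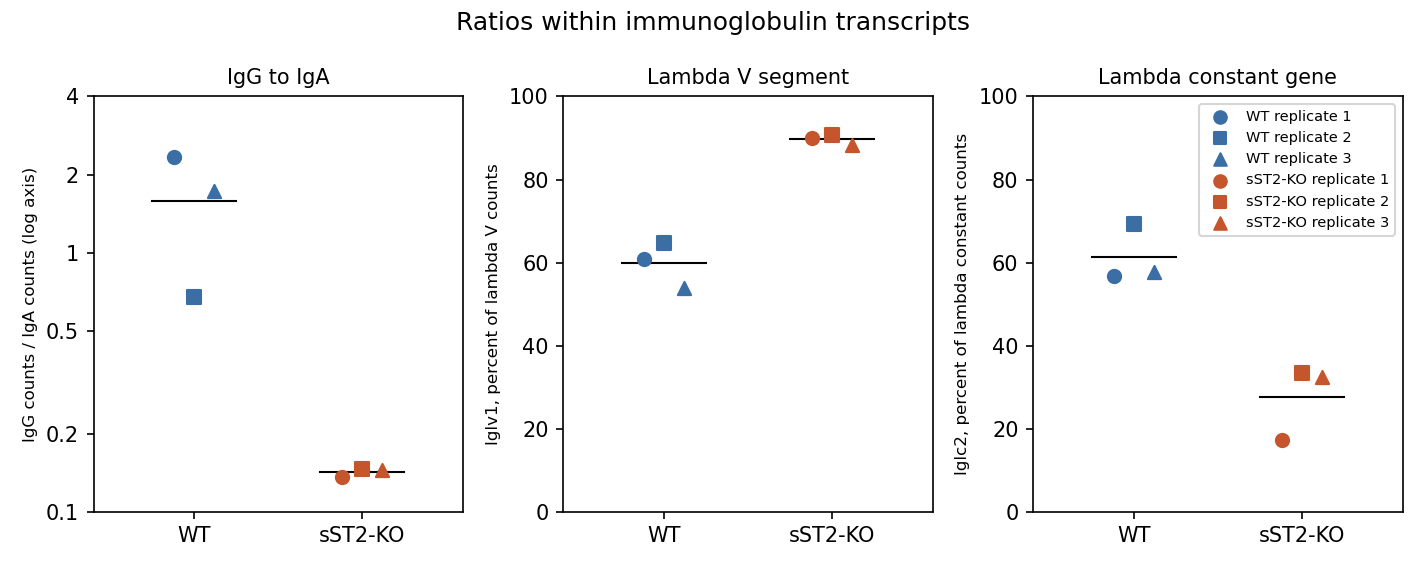
Left, IgG counts per IgA count on a log axis; middle, Iglv1 as a percent of lambda V counts; right, Iglc2 as a percent of lambda constant counts, with 1 point per library and a bar at the group mean. WT and sST2-KO points do not overlap in any panel, and the IgG to IgA ratio is 0.136 to 0.147 in sST2-KO against 0.672 to 2.34 in WT. The ratio was examined after the class levels had been seen, and Iglc2 counted together with Iglc3 overlaps between the groups.

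V segment counts were smaller than constant region counts. Heavy V members held 902, 296 and 604 counts in WT and 345, 1189 and 320 in sST2-KO, and kappa V members held 1985, 556 and 1368 in WT, against 730, 3924 and 732 in sST2-KO. Of all heavy and kappa V segments, 6 heavy and 13 kappa segments had a count in every library. A different segment led in almost every animal. Among 63 heavy V members, 40 had more counts in a single library than in the other 5 together, as did 32 of the 64 kappa V members. These are raw counts, not shares, and sST2-KO replicate 2 held the most V counts at both loci. Igkv6-15 is among them through 57 counts in that library, where its share was 1.45%, against 2.33% in sST2-KO replicate 1.

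In the heavy chain locus, Ighv1-26 (chr12:114751992-114752425) had the highest mean share. It took 15.9%, 0% and 14.1% of heavy V counts in WT and 6.96%, 2.44% and 7.50% in sST2-KO, leading in WT replicates 1 and 3 and absent from WT replicate 2. Ighv10-3 (chr12:114487061-114487525), the next by mean share, took 21.3% in WT replicate 2 and at most 6.88% elsewhere. The leading segment was Ighv1-64 in sST2-KO replicate 1 (15.7%), Ighv1-19 in replicate 2 (18.5%) and Ighv12-3 in replicate 3 (8.12%). Ighv1-19 had 220 counts in sST2-KO replicate 2, 24 and 12 counts in WT replicates 1 and 3, and 0 counts in the remaining libraries. The Ighv1 family, with 32 members the largest of the locus, took 65.1%, 44.3% and 66.4% in WT, against 43.5%, 51.5% and 47.2% in sST2-KO. It was the largest family in every library, and the groups overlapped through WT replicate 2.

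In the kappa locus, Igkv4-91 (chr6:68745539-68746087) had the highest mean share. It took 11.9%, 1.98% and 13.01% of kappa V counts in WT and 6.99%, 0.433% and 16.7% in sST2-KO. Igkv1-110 (chr6:68247469-68248251) took 30.8% in sST2-KO replicate 1, the largest share of any heavy or kappa V segment in any library, and 0.360% to 5.29% elsewhere. Igkv4-59 led in sST2-KO replicate 2 with 854 counts (21.8%) and had 0 counts in the other sST2-KO libraries. Igkv10-96 led in WT replicate 2 (23.9%) and Igkv1-117 in sST2-KO replicate 3 (18.2%). The 4 members of the Igkv1 family summed to 34.8% in sST2-KO replicate 1 and 23.4% in replicate 3, against 5.04% to 8.56% elsewhere, and those high shares came from Igkv1-110 in the former and Igkv1-117 in the latter.

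**Figure D4:**
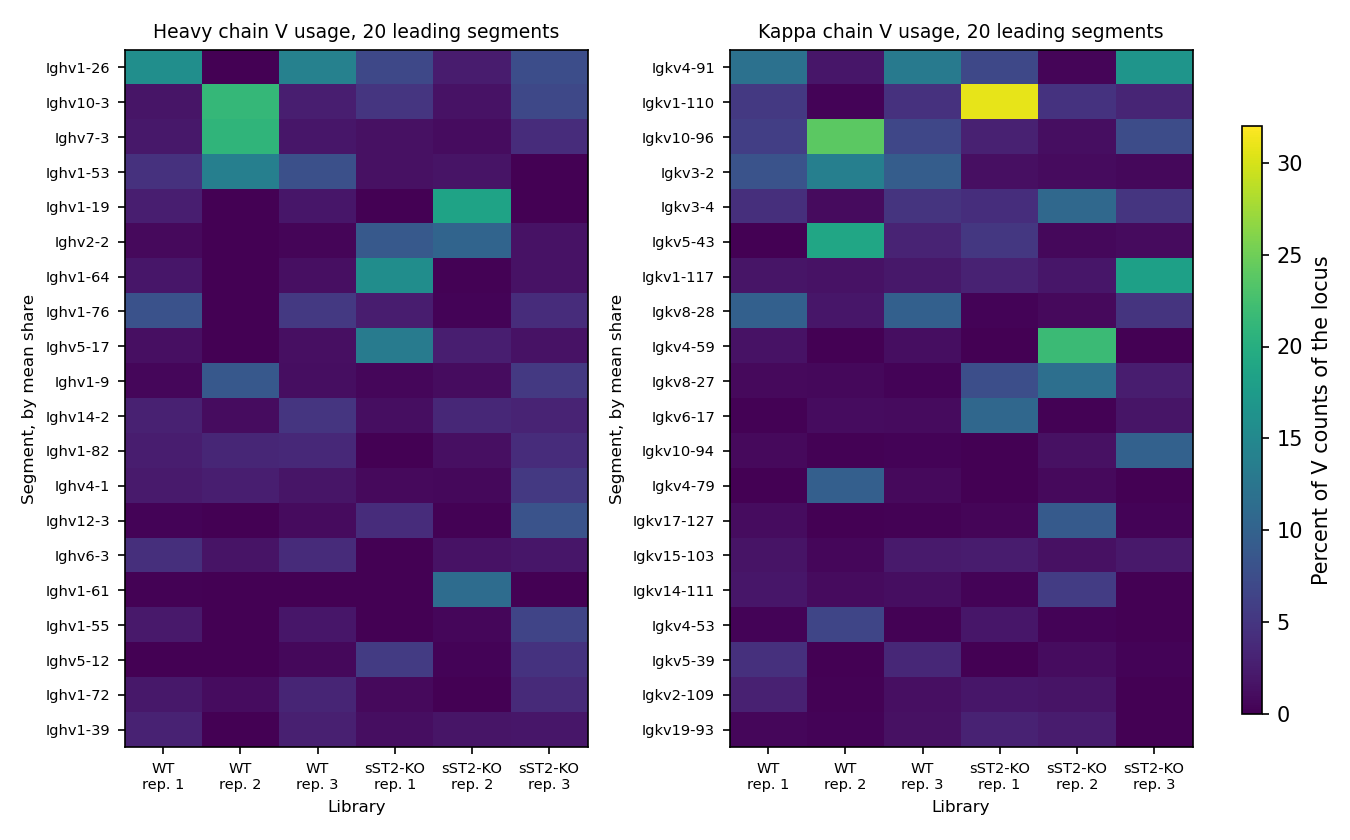
Heat maps of V usage: rows are the 20 heavy V (left) and 20 kappa V (right) segments with the highest mean share, columns are the 6 libraries, and colour is the percent of V counts of the locus. Each library has its own bright segments, such as Igkv1-110 at 30.8% in sST2-KO replicate 1, while the columns of WT replicates 1 and 3 look alike.

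The V segments with the lowest p-values are described next, and their non-overlap is to be read beside the 10% and 9.09% of all genes given above. Igkv3-2 (chr6:70675433-70676051) had 8.93, 6.14 and 7.69 CPM in WT and 0.568, 1.93 and 0.333 CPM in sST2-KO. All sST2-KO values lay well below WT, and its log2 difference of -2.98 (SE 0.66) had the lowest p among the segments (edgeR adjusted p = 0.348, DESeq2 adjusted p = 0.00103). Igkv10-96 (chr6:68608947-68609426) had 6.45, 10.6 and 5.61 CPM in WT and 1.19, 2.38 and 3.59 CPM in sST2-KO, a log2 difference of -1.66 (SE 0.49, edgeR adjusted p = 0.422). Igkv8-27 (chr6:70148793-70149254) had 0.937, 0.319 and 0.298 CPM in WT and 3.18, 22.8 and 1.26 CPM in sST2-KO. Its sST2-KO values were all above WT but spanned a wide range, with a log2 difference of 4.09 (SE 1.19, edgeR adjusted p = 0.417, DESeq2 adjusted p = 0.00623). Without sST2-KO replicate 2 the log2 difference of Igkv8-27 was 2.06. Igkv1-117 had 2.04, 0.718 and 1.73 CPM in WT and 1.25, 3.86 and 8.85 CPM in sST2-KO, and overlapped (log2 difference 1.62, SE 0.75, edgeR adjusted p = 0.470), or 0.76 without sST2-KO replicate 3. The fifth segment with non-overlapping lower values, beside Ighg2b, Ighd, Igkv3-2 and Igkv10-96, was Ighv1-53, which is named after its values were seen. It had 41, 41 and 47 counts in WT and 5, 20 and 0 in sST2-KO (log2 difference -2.64, SE 0.995, edgeR adjusted p = 0.442).

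Libraries were compared by the overlap of their V usage, the sum over segments of the smaller of the shares in a pair. WT replicates 1 and 3 overlapped by 76.2% for heavy V and 82.1% for kappa V. The other 14 pairs overlapped by 15.4% to 48.2% for heavy V and by 15.4% to 49.6% for kappa V, whether within a group or between the groups. Their usage was also nearer to counting noise than that of any other pair, with a chi-square per degree of freedom of 2.36 for heavy V and 4.96 for kappa V, against 8.31 to 28.3 and 17.5 to 57.8 in the other pairs. A value of 1 would be counting noise alone. The labels number these libraries as separate replicates and they were kept as such, so n = 3 in WT rests on the labels. Why this pair is alike was not tested. These libraries were also counted as 1 sample by their mean, as added after the values had been seen. The IgG share difference was then -13.1 percentage points and the log2 difference of the IgG to IgA ratio was -3.03. The Iglv1 and Iglc2 share differences were 28.6 and -35.5 percentage points in this setting. Each of these differences had an exact permutation p of 0.2. Leaving out WT replicate 1 gave -12.7 percentage points for the IgG share and leaving out WT replicate 3 gave -13.5.

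**Figure D5:**
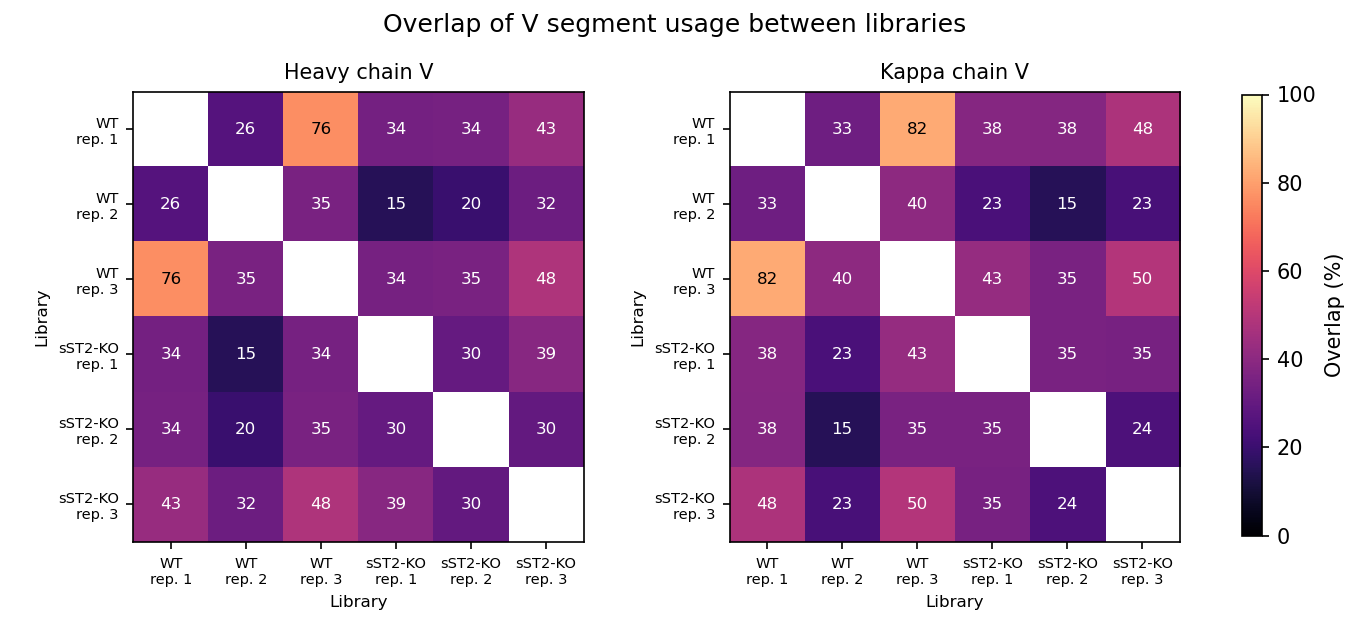
Overlap of V usage in percent for each pair of libraries, for heavy V (left) and kappa V (right); the diagonal is blank. WT replicates 1 and 3 overlap by 76.2% and 82.1%, and no other pair exceeds 49.6%.

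The evenness of V usage did not separate the groups. The effective number of segments, the inverse of the chance that a pair of counts comes from the same segment, was 21.3, 8.31 and 23.9 for heavy V in WT and 14.7, 14.0 and 24.3 in sST2-KO. For kappa V it was 21.2, 7.95 and 19.3 in WT, against 8.05, 11.03 and 11.2 in sST2-KO. WT replicate 2 had the lowest value in both loci. The differences gave exact permutation p-values of 1 and 0.4 (1 and 0.6 after adjustment over 6 measures of usage). At a common depth of 298 heavy V counts, the number of segments expected was 53.6, 28.0 and 54.9 in WT, against 33.6, 45.8 and 36.5 in sST2-KO. The 6 J members, which are short, held at most 9 counts each per library and were not described further.

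Genes of antibody-secreting cells were listed beside the segments. The lists were drawn up with earlier results of these data known, and none of their genes passed an edgeR adjusted p of 0.05. Among 11 tested plasma cell genes, 2 were lower and 0 higher at an unadjusted p under 0.05, beside 5.95% and 5.08% of all genes, and their median log2 difference was -0.08. Jchain, which links IgM and IgA into polymers, stood at 45.5, 26.0 and 40.6 CPM in WT and 48.4, 106 and 42.4 CPM in sST2-KO (log2 difference 0.81, SE 0.39, edgeR adjusted p = 0.484), or 0.28 without sST2-KO replicate 2. It ran in the order of Igkc at both ends, lowest in WT replicate 2 and highest in sST2-KO replicate 2, and the ratio of Igkc to Jchain counts stayed between 2.15 and 3.97. Mzb1, a chaperone of IgM assembly, had 9, 0 and 11 counts in WT and 5, 66 and 3 in sST2-KO. Tnfrsf13b, which encodes the TACI receptor for B cell survival factors, had 8.71, 9.57 and 7.57 CPM in WT and 4.89, 2.97 and 2.33 CPM in sST2-KO (log2 difference -1.34, edgeR adjusted p = 0.401). Pou2af1, a coactivator of immunoglobulin promoters, had 4.19, 3.67 and 3.64 CPM in WT and 1.36, 2.62 and 1.40 CPM in sST2-KO (log2 difference -1.09, edgeR adjusted p = 0.442). Both had lower values in every sST2-KO library than in any WT library, as was so for 10% of all genes tested. Eaf2 of the same list went the other way, without overlap, as was so for 9.09% of all genes tested. It had 2.15, 0.558 and 2.39 CPM in WT and 2.61, 3.61 and 2.46 CPM in sST2-KO (log2 difference 0.76, edgeR adjusted p = 0.596).

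B cell genes had mostly lower values in sST2-KO. Of 15 tested B cell genes, 14 had a negative log2 difference, beside 7620 of the 16377 genes tested, and the median was -1.05. At an unadjusted p under 0.05, 4 were lower and 0 higher, beside 5.95% and 5.08% of all genes. Cd72, an inhibitory coreceptor of B cells, had 58.8, 31.3 and 51.2 CPM in WT and 19.0, 12.6 and 10.1 CPM in sST2-KO (log2 difference -1.76, SE 0.33, edgeR adjusted p = 0.335, DESeq2 adjusted p = 0.000471). Ms4a1, which encodes CD20, had 3.31, 4.15 and 3.52 CPM in WT and 2.27, 0.940 and 0.865 CPM in sST2-KO (log2 difference -1.42, edgeR adjusted p = 0.435). The groups did not overlap for either gene, as was so for 10% of all genes in the lower direction. Tnfrsf13c, the BAFF receptor, and Bank1, a B cell scaffold protein, had log2 differences of -1.46 and -1.13 (edgeR adjusted p = 0.445 and 0.451). Ms4a1 and Ighd were both lowest in sST2-KO replicates 2 and 3, whereas Ighm and Igkc were highest in sST2-KO replicate 2. Vpreb3, a surrogate light chain relative, had 47.6 CPM in sST2-KO replicate 2, with 1.19 CPM the most in any other library.

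Genes of recombination and class switching gave little signal. Bcl6, a germinal centre repressor that other cells also express, was at 51.9, 49.5 and 42.5 CPM in WT and 64.8, 60.3 and 59.4 CPM in sST2-KO (log2 difference 0.36, edgeR adjusted p = 0.451). It was the sole 1 of 7 tested genes with an unadjusted edgeR p under 0.05, beside 5.95% lower and 5.08% higher among all genes.

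Factors that attract B cells or sustain plasma cells had 3 of 11 tested genes lower and 0 higher at an unadjusted p under 0.05, beside 5.95% and 5.08% of all genes. Il6, a plasma cell growth factor, had 15.9, 4.23 and 12.5 CPM in WT and 1.48, 1.73 and 0.466 CPM in sST2-KO (log2 difference -3.13, SE 0.67, edgeR adjusted p = 0.339, DESeq2 adjusted p = 0.000432). Cxcl13, the chemokine of B cell follicles, had 20.4, 8.93 and 18.7 CPM in WT and 4.72, 8.51 and 4.39 CPM in sST2-KO (log2 difference -1.44, edgeR adjusted p = 0.420). Cxcl12, which retains plasma cells in their niches, had 493, 518 and 472 CPM in WT and 377, 282 and 263 CPM in sST2-KO (log2 difference -0.68, edgeR adjusted p = 0.431). None of these 3 genes overlapped between the groups, as was so for 10% of all genes in the lower direction. Among the WT libraries, replicate 2 was the lowest for Il6 and Cxcl13 and the highest for Cxcl12.

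Receptors that bind immunoglobulin had 4 of 10 tested genes lower at an unadjusted p under 0.05, beside 5.95% of all genes, with a median log2 difference of -0.81. Fcgr2b, the inhibitory IgG receptor, had 135, 140 and 120 CPM in WT and 65.7, 51.2 and 41.4 CPM in sST2-KO (log2 difference -1.32, SE 0.21, edgeR adjusted p = 0.294, DESeq2 adjusted p = 4.6e-05). Fcgr3 and Fcgr1, activating IgG receptors of macrophages, and Fcer1g, their signalling chain, had log2 differences of -0.79, -1.53 and -0.95 (edgeR adjusted p = 0.354, 0.386 and 0.386). Fcgrt, the neonatal receptor that protects IgG from degradation, had a log2 difference of 0.23 (edgeR adjusted p = 0.707). T cell genes, as markers of another lymphocyte, had 0 of 12 below an unadjusted p of 0.05 in either direction and a median of 0.01. Every listed airway gene was highest in sST2-KO replicate 2, and every listed hepatocyte gene except Hp was highest in WT replicate 3. Hp had 1311, 213 and 1124 CPM in WT and 1063, 307 and 941 CPM in sST2-KO. At an unadjusted p under 0.05, 2 of 3 tested hepatocyte genes were lower and 7 of 9 tested airway genes higher in sST2-KO. Among all genes these shares were 5.95% lower and 5.08% higher.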

How the data were processed

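Poly(A)-selected RNA from 6 aortas (3 WT, 3 sST2-KO) was sequenced, per the labels' protocols. The authors deposited whole-number counts per gene, on mm39 per the submitters' processing notes. Not given in the sources used here are the aligner, the counter, its strand setting, its treatment of reads that match several genes and the annotation release. Reads shared by near-identical segments may have been dropped or split, and the CDR3 junction is in no segment's row. Tests used edgeR 4.0.16 in R 4.3.3 on the counts as deposited: filterByExpr (minimum count 10, minimum total 15), TMM, glmQLFit and glmQLFTest, Benjamini-Hochberg adjustment over all 16377 genes tested and a threshold of 0.05. The fit was tested on simulated data. DESeq2 1.42.0, limma 3.58.1, RLE and upper-quartile scaling, other filters, a replicate block and leaving out libraries were alternatives. Class sums, shares, ratios and usage were compared by two-sided exact permutation over the 6 libraries (scipy 1.17.1). Intervals are 95% Clopper-Pearson, and the limit for a count of 0 is 3 counts. Depth limited lambda shares most, with interval half-widths up to 21.0 percentage points, against at most 2.01 for IgM, IgD, IgG and IgA shares. Sequences were read from GENCODE vM21 transcripts and aligned with Biopython 1.88.

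Named were all constant genes, the 2 leading V segments of each locus by mean share, the leading heavy and kappa V segment of each library, the 3 segments with the lowest p in each direction, and up to 4 genes of each related list by lowest p plus its defining genes, of which some are not reported here. The segments and lists were chosen with earlier results of these data known.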

Additional observations from a re-analysis of the deposited data

How the results depend on the processing

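No segment passed an adjusted p of 0.05 in edgeR under any scaling, filter, replicate block or left-out library, nor at a threshold of 0.1, whereas DESeq2 called 4 segments. Over all genes, edgeR called 0 genes, or 0 to 1 when each library was left out in turn (1 without sST2-KO replicate 2). DESeq2 called 291 genes and limma-voom with sample quality weights 43, and limma-voom without weights 0. Leaving out each library in turn, the log2 difference ranged from -0.37 to 0.58 for total immunoglobulin, -0.70 to 0.79 for IgM, -0.069 to 0.94 for kappa C, -1.04 to 0.28 for lambda C, -0.77 to 0.022 for heavy V and -0.71 to 0.40 for kappa V. Over the same settings the IgM share difference ranged from -10.9 to 10.9 percentage points and the heavy V effective number difference from -4.97 to 2.85. IgG (-2.50 to -1.30), IgD (-2.04 to -1.21), IgA (0.94 to 1.95), the IgG share (-16.8 to -12.7 points), the Iglv1 share (26.9 to 32.3 points) and the Iglc2 share (-36.4 to -28.3 points) kept their sign. Without WT replicate 3 and sST2-KO replicate 2 together, total immunoglobulin (-0.29), IgM (-0.60), kappa C (-0.031) and the heavy V effective number (4.67) changed sign, as did the log2 differences of Ighm (-0.62), Igkc (-0.13) and Iglc1 (-1.23). With WT replicates 1 and 3 counted as 1 sample, lambda C (0.15), kappa V (0.18) and the heavy V effective number (2.19) changed sign. With quality weights the log2 differences of Ighm (-0.52), Igkc (-0.043) and Iglc1 (-0.98) changed sign. With single libraries left out, Ighm ranged from -0.68 to 0.94, Igkc from -0.13 to 1.12, Iglc1 from -1.21 to 1.24, Iglc3 from -0.045 to 1.07, Ighg3 from -1.81 to 0.36 and Xbp1 from -0.36 to 0.068. The cause was not tested. Replicate numbers did not pair the samples, with correlations of 0.15, 0.05 and -0.09 between same-numbered libraries. The replicate block left total immunoglobulin at 0.25 and turned Ighm to -0.020 and Iglc1 to -0.12. Lambda V shares were limited by depth, with as few as 30 counts in a library.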

Other observations

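Rag1 and Dntt, genes of segment recombination in developing lymphocytes, were highest in a single sST2-KO library. Rag1 had 2.81, 7.10 and 3.995 CPM in WT and 11.6, 0.346 and 0.865 CPM in sST2-KO. Dntt had 1.54, 1.99 and 2.39 CPM in WT and 6.82, 0 and 0.732 CPM in sST2-KO. Rag2 had 0, 0 and 6 counts in WT, against 3, 0 and 0 in sST2-KO, and so was highest in WT replicate 3. In sST2-KO replicate 1, the T cell genes Cd4 (13.9 CPM), Cd8b1 (7.27 CPM) and Trbc2 (9.999 CPM) and the B cell genes Cd79a (5.45 CPM) and Cd22 (17.9 CPM) were also the highest of the 6 libraries. Of the surrogate light chain genes, Vpreb1 and Igll1 had 0 counts there and Vpreb2 had 3. These genes were picked after their values were seen.

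Fcamr, a receptor for IgA and IgM, followed Pigr, with 309 counts in sST2-KO replicate 2 and at most 3 counts elsewhere.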
